A study of Homo sapiens and Mus musculus with 19 samples.

Results

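The secreted cystatins described here are CST1, CST2, CST4, CST3 and CST6, measured by 8 of the 54675 human probe sets and, as Cst3 and Cst6, by 2 of the 45101 mouse probe sets. A probe set is a group of short oligonucleotides on an Affymetrix array that reports 1 transcript, and every probe set annotated with a member symbol was taken. The genes were chosen on measured values, the very large signals of CST1, CST2 and CST4 on a single array, that of H358 cells carrying IKKb, so the values of that array are given as a description and stay out of the tests reported here, apart from 1 alternative fit on all 15 human arrays. All 8 human probe sets passed the filter on low signals, as did 36444 human probe sets in all, and none of the 8 named a gene besides its own.

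Cystatins are small proteins that bind into the active site of papain-like cysteine proteases, among them the cathepsins, and block them. CST1, CST2 and CST4 encode the salivary cystatins SN, SA and S, which are closely similar in sequence and are secreted by salivary and airway glands. CST3 encodes cystatin C, made by most nucleated cells, and CST6 encodes cystatin E/M of epithelia, an inhibitor of legumain and of cathepsins L and V. CST1 is also known from airway epithelium in type 2 inflammation and from several carcinomas.

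The series holds 19 arrays of lung cancer lines, 15 human and 4 mouse, with NF-kB signalling switched on or blocked by a retrovirus. The control, called MiG, was the empty vector with its GFP marker. IKKb cells carried the same vector with IKK beta, the kinase that marks the inhibitor IkB alpha for destruction, made active by glutamate at serines 177 and 181. IkB_SR cells carried an IkB alpha super-repressor in which alanine at serines 32 and 36 prevents that destruction. Cells of all groups, controls included, had been transduced and then sorted for GFP, so each comparison is between overexpressing cells and vector cells. The human lines were A549, a lung carcinoma line, H23, HCC827 and PC9, 3 adenocarcinoma lines, and H358, a bronchioalveolar carcinoma line, with 1 array for each line and vector. The mouse arrays were Lewis lung carcinoma cells (LLC) with MiG or IKKb, 2 arrays each, and all 4 titles carry "kB OVA", which the labels do not explain. The labels do not say whether a sorted population was 1 clone or a pool, or whether the numbered LLC replicates were separate cultures, so the p-values measure the spread between these samples.

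Signals were deposited on a linear scale and brought to a trimmed mean of 500 on each array, and the median probe set lay between 51.3 and 76.5 on the human arrays. A signal under the 40th percentile of its array, which was 28.7 to 45.0 on the human arrays, is called dim here and gives an upper bound rather than a level. EPCAM, an epithelial surface marker, read 13777, 13781 and 16352 on the MiG, IkB_SR and IKKb arrays of H358, and all 6 epithelial markers examined were above the 40th percentile on each of them. NFKBIA, the gene of IkB alpha, was 7.08-fold higher with IkB_SR than with MiG in HCC827, 6.05-fold in PC9, 4.07-fold in H358 and 1.60-fold in A549, and 0.782 times the MiG signal in H23. The IkB_SR vector itself carries an IkB alpha, so these signals may include its transcript, which was not tested. The pathway readout TNFAIP3, a feedback inhibitor, was higher with IKKb than with MiG in 5 of 5 lines, by 1.36-fold to 10.8-fold. With IkB_SR it was lower than with MiG in each line. It read from 0.167 times the MiG signal in PC9 to 0.456 times in H358, with 0.326 in H23.

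The H358 IKKb array differed from the other H358 arrays in its controls. The Dap spike-in read 4376 there, while the MiG and IkB_SR arrays of H358 had 1128 and 1103, the A549 arrays 154 to 161 and the 9 arrays of H23, HCC827 and PC9 2376 to 4354. The actin ratio of 3' to 5' signal was 1.74, against 1.03 to 1.41 on the other 14 human arrays. The same ratio for GAPDH was 1.09, against 0.920 to 0.978. Its log2 signals correlated at 0.970 and 0.956 with the other H358 arrays and at most at 0.894 with an array of another line, over all probe sets. The MiG and IkB_SR arrays of H358 correlated at 0.982, and arrays within each other line at 0.970 or more. The part of these differences in the cystatin values was not tested, and there is no second H358 IKKb array.

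CST1 (probe set 206224_at), which encodes cystatin SN, was dim in H358 control cells and very high with IKKb. In H358 it read 5.20 with MiG, 2.16 with IkB_SR and 15801 with IKKb. In A549 it read 220.0, 283.3 and 854.0 with the same 3 vectors. In PC9 the values were 76.6, 24.8 and 226.3. IKKb gave the highest signal in each of these lines, and in A549 the lowest signal was that of MiG. In HCC827 CST1 read 44.2, 18.4 and 70.8, and in H23 5.63, 8.37 and 30.0, where all 3 arrays were dim. The signal was thus above the 40th percentile on 8 of 15 arrays, and IKKb was the highest of the 3 vectors in 5 of 5 lines. Among all probe sets that passed the filter, 0.853% had IKKb highest in all 5 lines and 1.54% in the 4 lines without H358. These percentages cannot show how rare the CST1 order is. CST1 was chosen on its H358 IKKb signal, so the order in that line was fixed beforehand, and the H23 order rests on dim signals alone. Only A549, HCC827 and PC9 had an IKKb signal that was both above the 40th percentile and not used in the choice.

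**Figure D1:**
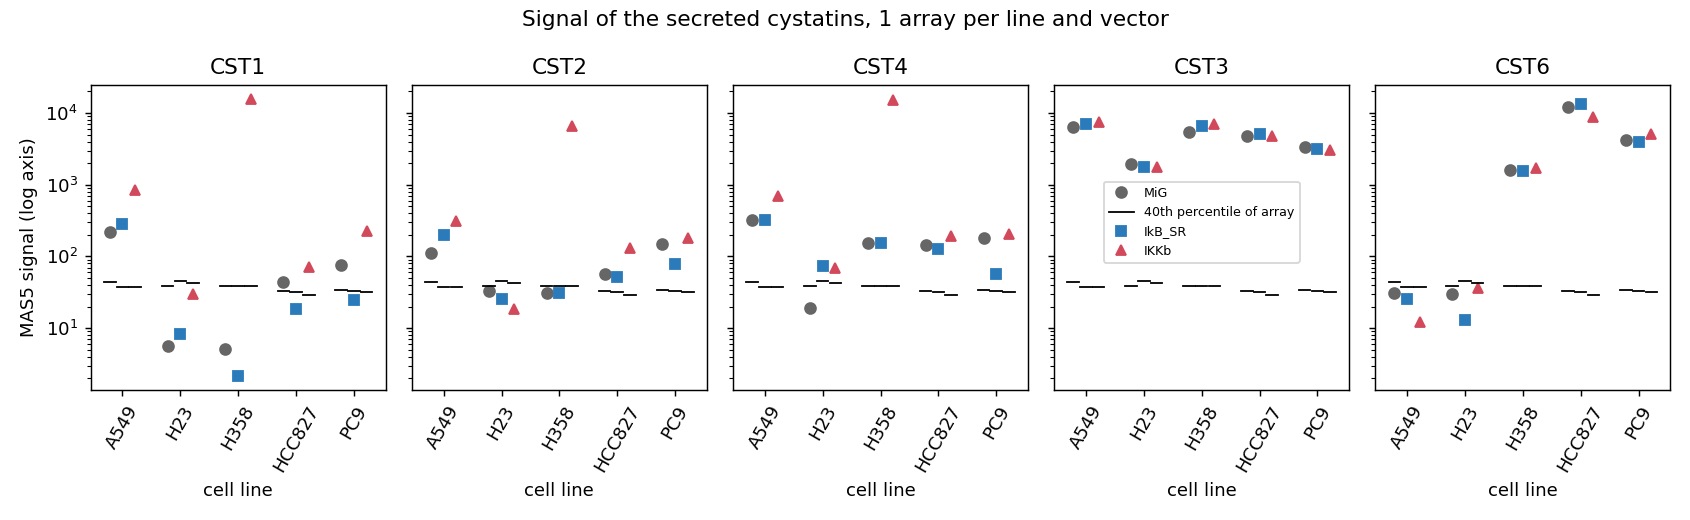
Signal of the brightest probe set of each secreted cystatin (log axis) in 5 human lines with MiG (circles), IkB_SR (squares) and IKKb (triangles), 1 array per point; black dashes mark the 40th percentile of each array. CST1, CST2 and CST4 reach 15801, 6689 and 15079 on the H358 IKKb array, whereas the 3 vectors lie close together for CST3 and, in H358, HCC827 and PC9, for CST6.

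The difference between IKKb and MiG in H358 was 9.54 on the log2(signal + 16) scale for CST1, rank 1 of 36444 probe sets. With the 40th percentile of the MiG array in place of the dim MiG value, CST1 was at least 413-fold higher with IKKb than with MiG, and at least 409-fold higher than with IkB_SR. In A549 the signal with IKKb was 3.88-fold that with MiG, in PC9 2.96-fold and in HCC827 1.60-fold. The A549 difference of 1.88 on the log2 scale ranked 19 of 36444 in that line. TNFAIP3 did not follow the same order of lines, since its IKKb to MiG ratio was 10.6 in H358 and 10.8 in HCC827. RELB and NFKBIA had their highest ratio in H358, at 5.91 and 3.91, with 2.31 and 3.34 in HCC827.

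CST2 (208555_x_at), which encodes cystatin SA, showed the same pattern in H358. It read 30.7 with MiG, 31.3 with IkB_SR and 6689 with IKKb in H358, where both other arrays were dim. In A549 it read 110.5, 198.3 and 310.5, in HCC827 57.7, 51.1 and 129.6, and in PC9 150.1, 77.7 and 181.4. H23 was the exception, with dim values of 32.8, 25.1 and 18.4 that were lowest with IKKb. CST2 was at least 175-fold higher with IKKb than with MiG in H358, a log2 difference of 7.16 and rank 4 of all probe sets. Elsewhere the IKKb signal was 2.81-fold that of MiG in A549, 2.25-fold in HCC827 and 1.21-fold in PC9.

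CST4 (206994_at), which encodes cystatin S, was not dim in the H358 cells that carried MiG or IkB_SR. It read 154.1 with MiG, 152.8 with IkB_SR and 15079 with IKKb, a 97.8-fold difference between IKKb and MiG. On the log2 scale this was 6.47, rank 6 of all probe sets. In A549 CST4 read 319.1, 320.9 and 695.5, in HCC827 145.6, 128.6 and 190.5, and in PC9 182.0, 57.0 and 205.8. H23 read 19.2, 74.7 and 68.4, so that there IkB_SR and not IKKb was highest. The IKKb signal exceeded the MiG signal in 5 of 5 lines, by 2.18-fold in A549, at least 1.78-fold in H23, 1.31-fold in HCC827 and 1.13-fold in PC9.

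These 3 genes are similar enough for their probes to bind each other's transcripts, and the CST2 probe set is of a type (_x_) marked for possible cross-hybridisation. Probe sequences were not used here, so how much of each signal belongs to each gene was not tested. All 3 probe sets were very high on the H358 IKKb array, and their levels differed elsewhere. On the H358 MiG array CST4 was well above the 40th percentile while CST1 and CST2 were dim. In H23 CST4 was above it with IkB_SR and IKKb, at 74.7 and 68.4, while the others were dim on all 3 arrays. Such levels cannot tell cross-reaction apart from each gene's own transcript. Over the 14 human arrays without H358 IKKb the log2 signals of CST1 and CST2 correlated at 0.91, CST1 and CST4 at 0.81, and CST2 and CST4 at 0.76. After subtracting each line's mean these were 0.74, 0.82 and 0.57. The correlations describe arrays that share lines and, possibly, cross-reacting probes.

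**Figure D2:**
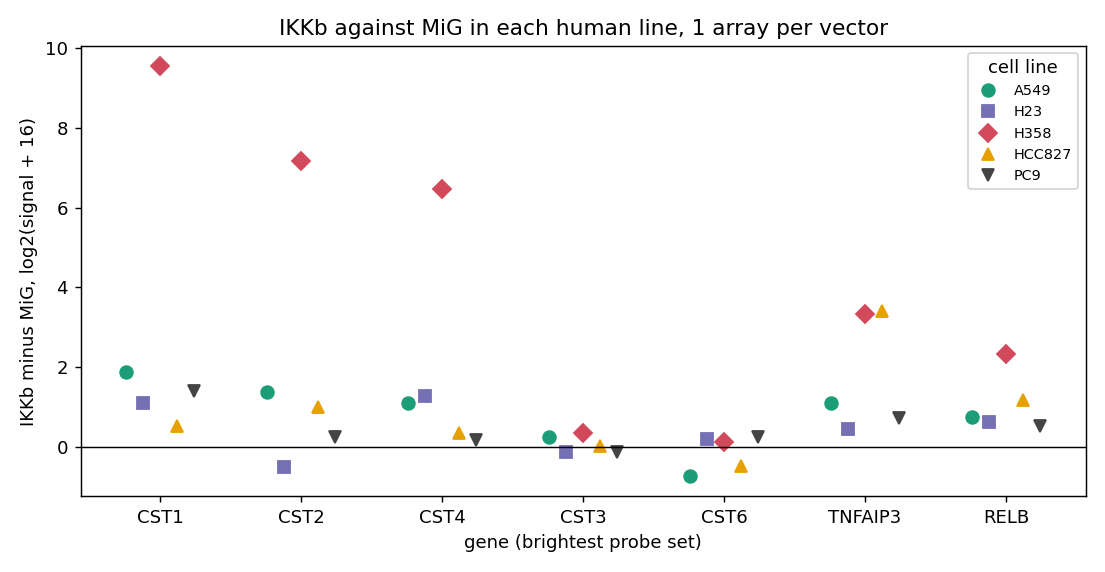
IKKb minus MiG difference in log2(signal + 16) for the 5 cystatins and for the NF-kB reference genes TNFAIP3 and RELB, 1 point per line, each from 1 IKKb and 1 MiG array. H358 stands at 9.54, 7.16 and 6.47 for CST1, CST2 and CST4, the other 4 lines between -0.50 and 1.88. H358 and HCC827 lie together for TNFAIP3, while for RELB H358 is highest at 2.32, with HCC827 at 1.16.

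CST3 (201360_at), which encodes cystatin C, was above the 40th percentile on all 15 arrays and varied more between lines than between vectors. With MiG, IkB_SR and IKKb it read 6482, 6968 and 7618 in A549, and 5515, 6585 and 6984 in H358. In HCC827 the values were 4746, 5176 and 4770, in PC9 3323, 3165 and 3009, and in H23 1960, 1791 and 1780. The order of lines was therefore A549, H358, HCC827, PC9 and H23 with MiG, and the ranges of the A549 and H358 arrays overlapped while those of the other lines did not. The H358 log2 difference between IKKb and MiG was 0.34. Of the other CST3 probe sets, 237623_at read 24.5 to 548.6 with a median of 249 and 230343_at 36.7 to 286 with a median of 140, and both were lowest in H23.

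CST6 (206595_at), the gene of cystatin E/M, divided the lines. It read 12296, 13467 and 8796 in HCC827 with MiG, IkB_SR and IKKb, 4238, 3921 and 5048 in PC9, and 1596, 1561 and 1735 in H358. In A549 it read 31.0, 25.4 and 12.3 and in H23 29.7, 13.1 and 36.1, all of them dim. The arrays of HCC827, PC9 and H358 thus formed 3 separate ranges above 2 lines in which the gene was dim. Within lines the log2 differences between IKKb and MiG were 0.12 in H358, 0.25 in PC9 and -0.48 in HCC827, and those between IKKb and IkB_SR 0.15, 0.36 and -0.61. The second CST6 probe set, 231248_at, was likewise dim on all arrays of A549 and H23 and read 118 to 174 in H358, 1100 to 1425 in HCC827 and 861 to 1682 in PC9, where it was 1.95-fold higher with IKKb than with IkB_SR. Over 14 arrays the 2 CST6 probe sets correlated at 0.95, but at -0.32 once each line's mean was subtracted. The second value includes the A549 and H23 arrays, where both probe sets were dim. For 231248_at the log2 differences between IKKb and MiG were 0.50 in H358, 0.33 in PC9 and -0.22 in HCC827. Those between IKKb and IkB_SR were 0.47, 0.95 and -0.37. In these lines they had the same signs as those of 206595_at.

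The test across lines asked whether the vectors changed the cystatins outside the array that had drawn attention to them. It used limma on 14 arrays, blocking on the line. The IKKb comparisons rest on the IKKb arrays of A549, H23, HCC827 and PC9, and p-values were adjusted over all 36444 probe sets. CST1 rose with IKKb against IkB_SR, by 1.58 ± 0.28 (log2, SE), or 2.98-fold, with a limma adjusted p of 0.0270. The IKKb signal was the higher one in each of the 4 lines, by 3.01-fold in A549, at least 6.84-fold in PC9 and at least 2.24-fold in HCC827, while both H23 arrays were dim. CST1 was 1 of 8 member probe sets past the adjusted threshold of 0.05, where 124 of all probe sets, or 0.34%, passed (0.239% as higher), and it ranked 24 by size among those 124. The call did not hold without A549 (adjusted p 0.0962 with limma), without HCC827 (0.0914) or without PC9 (0.193), and it was kept in 8 of 15 alternative settings.

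CST4 and CST2 did not pass in that comparison. CST4 differed by 0.77 ± 0.30 (log2, SE; limma adjusted p 0.400) and CST2 by 0.62 ± 0.28 (adjusted p 0.502). CST3 differed by -0.04 ± 0.08 and CST6 by -0.0066 ± 0.19, with adjusted p of 0.916 and 0.996. At an unadjusted p under 0.05, 3 of 8 member probe sets, those of CST1, CST2 and CST4, were higher with IKKb. Over all probe sets 9.53% passed in either direction and 4.06% as higher. The 3 may not be independent, since their probes may cross-react. The median difference of the 8 was 0.11, against -0.03 for all probe sets tested.

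Against MiG, IKKb gave 0 of 8 member probe sets past the adjusted threshold in limma and 2 of 8 at an unadjusted p under 0.05, where 2 of all probe sets, or 0.00549%, and 5.73% passed (0.0% and 1.96% as higher). The sets that passed unadjusted were those of CST1, higher by 1.24 ± 0.28 (log2, SE; 2.36-fold; limma adjusted p 0.796), and CST4, higher by 0.72 ± 0.30 (adjusted p 0.862). Here too the probes may cross-react, so these sets may not be independent. CST2 differed by 0.54 ± 0.28, CST3 by 0.01 ± 0.08 and CST6 by -0.18 ± 0.19. The median of the 8 was 0.10, against -0.03 for all probe sets tested.

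IkB_SR against MiG was measured in all 5 lines and gave 0 of 8 past the adjusted threshold and 0 of 8 unadjusted, where 0.00823% and 5.72% of all probe sets passed in limma. CST1 differed by -0.34 ± 0.26 (log2, SE; limma adjusted p 0.908), CST2 by -0.09 ± 0.26, CST4 by -0.05 ± 0.27, CST3 by 0.06 ± 0.07 and CST6 by -0.17 ± 0.17. The lines did not move together. In PC9 the MiG signal was 3.19-fold that of IkB_SR for CST4, 1.93-fold for CST2 and at least 2.31-fold for CST1, whereas in A549 the IkB_SR signal was 1.79-fold that of MiG for CST2 and 1.29-fold for CST1. The 3 comparisons share arrays. For CST1, CST2 and CST4 the differences for IKKb against MiG and for IKKb against IkB_SR therefore rest on the same IKKb values.

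As to how often IKKb gave the top signal, CST2 and CST4 had it highest in 3 of the 4 lines other than H358. So did the other CST3 probe sets, while CST1 had it highest in all 4, H23 being dim. That makes 5 of 8 member probe sets with IKKb highest in at least 3 of these 4 lines, where 10.0% of all probe sets had the same. The 5 are not independent, since the CST1, CST2 and CST4 probes may cross-react. Among these lines the brightest CST3 probe set, 201360_at, had IKKb highest only in A549.

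CST1, CST2, CST3 and CST4 lie in the cystatin cluster on human chromosome 20, in RefSeq's gene order on GRCh38.p14. The arrays measured 27 of the 59 genes listed from THBD to ENTPD6, and among the measured ones CST3, CST4, CST1, CST2 and CST5 follow each other in that order. On the H358 arrays the log2 difference between IKKb and MiG was 0.34 for CST3 on one side of the 3 genes and -0.70 for CST5, the gene of cystatin D, on the other. The 24 measured genes of the interval other than CST1, CST2 and CST4 differed by -1.22 to 0.34, with 0 of them above 1, and 12 of them were above the 40th percentile on the H358 IKKb array. Nearby genes with bright signals, the nuclear export factor NXT1 (0.20), GZF1 (0.14), APMAP (0.29) and ENTPD6 (-0.05), barely differed. Of a list of 10 flanking genes, 0 of the 10 tested passed the adjusted threshold in any of the 3 human limma comparisons.

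**Figure D3:**
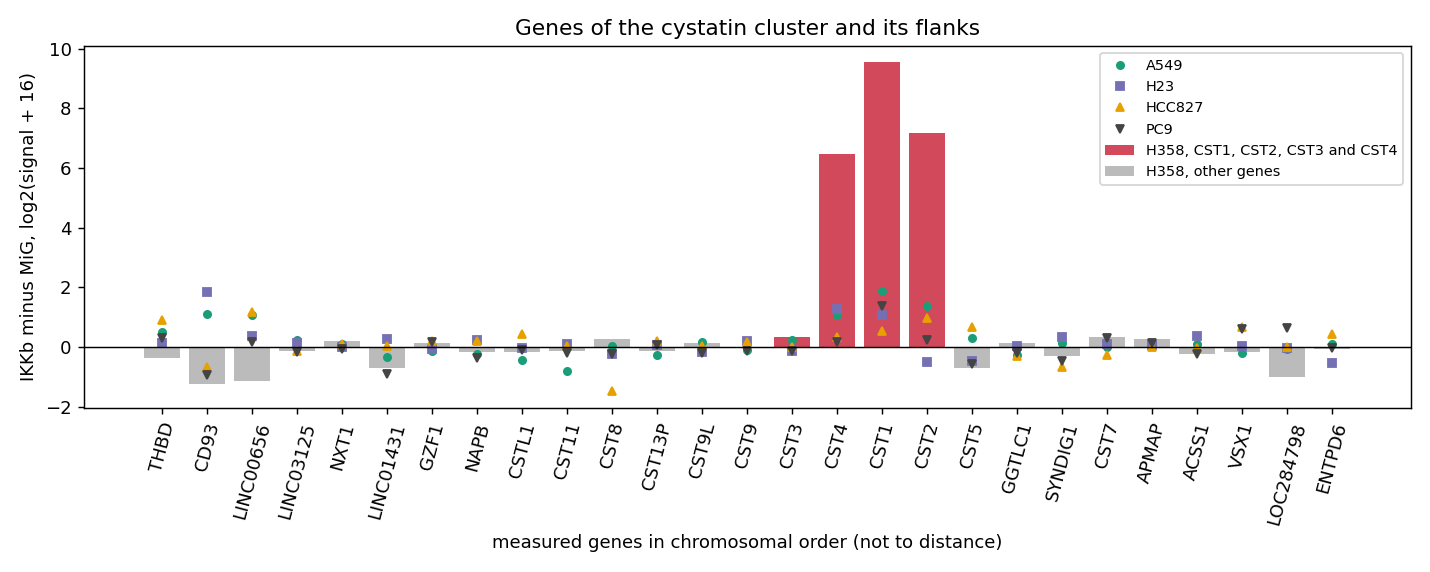
IKKb minus MiG difference in log2(signal + 16) for 27 measured genes of the cystatin cluster on chromosome 20 in gene order, with bars for H358 and points for the other 4 lines, each from 1 IKKb and 1 MiG array. CST4, CST1 and CST2 stand side by side at 6.47, 9.54 and 7.16, and every other bar lies between -1.22 and 0.34.

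CST6 lies on human chromosome 11, between BANF1 and CATSPER1 among the measured genes. In H358 the 10 other measured genes from FOSL1 to SF3B2 differed between IKKb and MiG by -1.21 to 0.93, with a median of 0.31 and CST6 itself at 0.12. The highest was FOSL1, a subunit of the AP-1 transcription factor. Of 8 tested genes in a list of CST6's neighbours, 0 passed in any human comparison.

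The H358 signals of CST1, CST2 and CST4 stood among those of chemokines. Over genes represented by their brightest probe set, the 8 largest log2 differences between IKKb and MiG in H358 were CST1 at 9.54, CCL5 at 7.23, CST2 at 7.16, CST4 at 6.47, SERPINA1 at 5.49, CCL2 at 5.15, CCL20 at 5.06 and LTB at 5.06. CCL5, CCL2 and CCL20 are chemokines that draw in leukocytes, LTB encodes lymphotoxin beta, and SERPINA1 encodes the elastase inhibitor alpha-1 antitrypsin. In H358, 36 probe sets, or 0.0988%, were at least 8-fold higher with IKKb than with MiG on the log2(signal + 16) scale, 3 of them cystatins. HCC827 had 24 such probe sets and none of the cystatins among them, H23 had 3 and A549 and PC9 had 2 each. CCL2, unlike the cystatins, was also far higher in HCC827, at 11087 with IKKb against 927 with MiG.

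Over all 15 human arrays, and after each line's mean was subtracted, the genes whose log2 signal was most like that of CST1 were SERPINB7 (r = 0.97), TMX1 (0.96), ST3GAL1 (0.96) and SERPINA1 (0.95). For CST2 they were ST3GAL1 (0.98), LARP6 (0.97), SERPINA1 (0.97) and SERPINB7 (0.95), and for CST4 ATP13A1 (0.98), ST3GAL1 (0.96), SERPINB7 (0.96) and NAPA (0.96). These values include the H358 IKKb array, whose signals chose the members, so they are a description only, and the ranking without that array was not computed. SERPINB7 read 1110 there and 132 on the H358 MiG array. In A549, where CST1 was 3.88-fold higher, SERPINB7 read 568 with IKKb and 602 with MiG. Without subtraction, over the same 15 arrays, the leading genes for CST1 were SLC22A4 (0.84), DUS3L (0.82), LPXN (0.79) and TNFRSF9 (0.78).

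CST3 was most like SH3BGRL (0.99), ABHD12 (0.98), C19orf33 (0.97) and REEP5 (0.97) over the 15 arrays, and CST6 most like KDF1 (0.99), ARHGAP29 (0.99), AFAP1-AS1 (0.98) and PPP2R3A (0.98). With line means subtracted the highest values were lower for CST3, led by GRN at 0.89 and MED18 at 0.89, and for CST6, led by CYTOR at 0.89. These values describe 15 arrays that share 5 lines.

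Other genes of the cystatin superfamily showed no such signal. Of 13 on the human array, 6 passed the filter and 0 of 6 passed the adjusted threshold in any of the 3 human limma comparisons. In H358 none of the 13 differed 2-fold between IKKb and MiG on the log2(signal + 16) scale, and the largest log2 differences were those of AHSG at 0.72, CST5 at -0.70, CSTA at 0.49 and FETUB at 0.45, all from weak signals, the strongest being CST5 at 74.3 with MiG. CSTB, the intracellular inhibitor cystatin B, read 9337 with MiG and 11876 with IKKb in H358.

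The proteases that cystatins inhibit mostly did not pass the test. Of 12 papain-like cathepsins and legumain on the array, 11 were tested. Only CTSH, an aminopeptidase of the lysosome, passed in any comparison: it fell with IKKb against IkB_SR by 0.87 ± 0.16 on the log2 scale, or 1.82-fold, with a limma adjusted p of 0.0332. The median of the list in that comparison was -0.03, as for all probe sets. CTSS, a cathepsin of antigen-presenting cells, was represented by its brightest probe set, which differed by 1.403 ± 0.328 (log2, SE; limma adjusted p 0.103). Its other probe sets, singled out after their values were seen, passed at 1.75 ± 0.31 (202901_x_at, adjusted p 0.0272 with limma) and 1.07 ± 0.19 (232617_at, 0.0261). In H358, CTSS read 1313 with MiG, 2161 with IkB_SR and 2754 with IKKb, whereas CTSZ read 2378, 2561 and 994, CTSV 1113, 1074 and 577 and CTSK 224, 265 and 121. CTSZ, CTSV and CTSK were thus lower on the H358 IKKb array than with MiG. Others were higher there, among them CTSS, CTSF (321 against 182) and CTSB (8810 against 6889). The median log2 difference of the 12 genes between IKKb and MiG in H358 was 0.06.

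Of 13 other secreted protease inhibitors of epithelia on the array, 12 were tested and 0 passed in any of the 3 human limma comparisons, with a median of 0.22 for IKKb against IkB_SR. In H358 SERPINA1 read 86.3 with MiG, 71.7 with IkB_SR and 4590 with IKKb, while HCC827 had 5351, 3195 and 5909, so its H358 IKKb level lay within the range of another line. SLPI, an inhibitor of neutrophil elastase, read 193 with MiG and 402 with IKKb in H358, WFDC2 1025 and 1789, and SERPINB1 4257 and 2698.

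Of 11 airway genes of type 2 inflammation on the array, 7 were tested and 0 passed in any of the 3 human comparisons. In H358 TFF3, a secreted mucosal peptide, read 34.2 with MiG and 87.2 with IKKb, while the eosinophil chemokine CCL26 read 1540 and 871, CDH26 126 and 85.8, and CLCA1 36.1 and 11.6, dim on both arrays. The NF-kB list behaved otherwise. All 17 of its genes on the array were tested, 8 rose with IKKb against IkB_SR, and its median was 1.89. IL32 was the largest at 4.09 ± 0.44 (log2, SE; limma adjusted p 0.00166), TNFAIP3 stood at 3.07 ± 0.39 (0.00328) and RELB at 1.97 ± 0.21 (0.00166), and ICAM1, NFKB2, NFKBIE, TNIP1 and NFKB1 also rose. This list was known to move in these arrays and is no independent evidence. In H358, 15 of its 17 genes were at least 2-fold higher with IKKb than with MiG on the log2(signal + 16) scale, a share that was 3.09% over all probe sets.

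Markers of cell types that express cystatins or could enter a culture were read on the same H358 arrays. Of 12 salivary and serous gland markers, 5, 5 and 6 were above the 40th percentile with MiG, IkB_SR and IKKb, and their summed signal was 919, 1197 and 914 against 296 to 1122 on the arrays of other lines. On the log2(signal + 16) scale 2 were at least 2-fold higher with IKKb than with MiG. PRB1, a salivary proline-rich protein, read 9.92, 64.2 and 101 with MiG, IkB_SR and IKKb, within 20.9 to 109 on the other lines' arrays except for the dim MiG value. LPO, lactoperoxidase, read 11.4, 3.36 and 47.8, so its IKKb value lay above the 3.66 to 17.4 of the other lines' arrays. PIP read 42.3, 41.8 and 97.6, a log2 difference of 0.96. HTN1 (0.63) and BPIFA2 (0.59) were also higher with IKKb than with MiG. In contrast, BPIFA1 (-0.98), ZG16B (-0.65), PRB3 (-0.52) and STATH (-0.49) were lower with IKKb. HTN1, ZG16B and STATH were dim on each H358 array, and BPIFA1 was dim with IkB_SR and IKKb. The gland markers not named here differed less. The summed signal of 10 alveolar and airway markers was 3013, 3252 and 1698, against 421 to 1919 on other lines' arrays. NKX2-1, a lung lineage factor among them, read 2397, 2486 and 1045. Leukocyte markers summed to 277, 316 and 222, against 194 to 965 on other lines' arrays, with 2, 4 and 2 of 9 above the 40th percentile. Markers of fibroblasts and endothelium summed to 3531, 3857 and 3348. These sums lay above the 1081 to 2341 of other lines' arrays with all vectors. None of the genes on these lists passed in a human limma comparison. The part of the NKX2-1 and airway marker difference in the cystatin values was not tested, and in bulk RNA more cells expressing a gene and more RNA per cell cannot be told apart.

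The mouse arrays were annotated with Cst3 and Cst6 among the member symbols. Cst3 (1426195_a_at) read 7362 and 4815 with MiG and 5411 and 4357 with IKKb in LLC cells. The groups overlapped, because the MiG array of replicate 2 lay below the IKKb array of replicate 1. The IKKb signal was 0.735 of the MiG signal in replicate 1 and 0.905 in replicate 2, and the difference was -0.29 ± 0.27 (log2, SE; limma adjusted p 0.99995).

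Cst6 (1427910_at) was weak in LLC. It read 82.6 and 88.5 with MiG and 45.6 and 38.3 with IKKb, the last of these just under the 40th percentile of its array, 38.4. The groups did not overlap, and the MiG signal was 1.81-fold and 2.31-fold the IKKb signal in replicates 1 and 2. Of all 28020 mouse probe sets that passed the filter, 9.65% had both IKKb signals below both MiG signals. The difference was -0.81 ± 0.34 (log2, SE; limma adjusted p 0.99995), and 0 of 2 members passed, adjusted or unadjusted. Over all mouse probe sets limma called 0, or 0.0%, at the adjusted threshold and 413, or 1.47%, at an unadjusted p under 0.05.

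**Figure D4:**
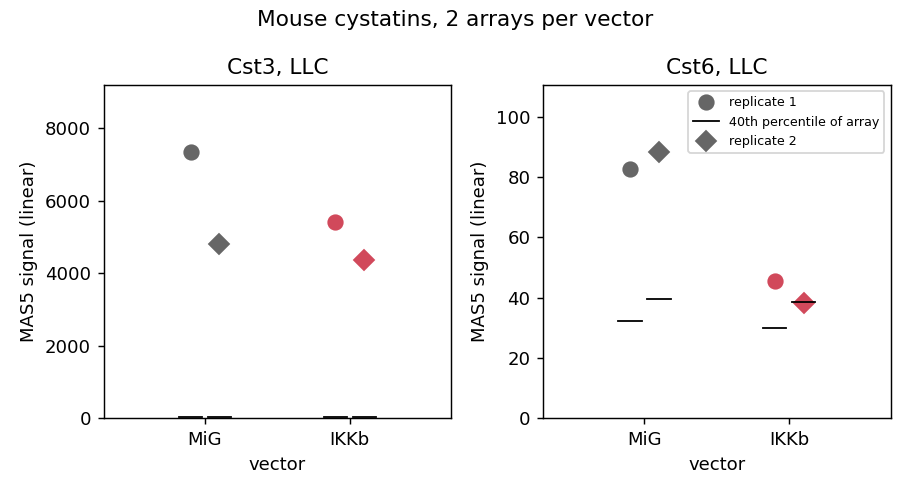
Signal of Cst3 and Cst6 in LLC cells (linear axes) with MiG or IKKb, 1 point per array, circles for replicate 1 and diamonds for replicate 2; black dashes mark the 40th percentile of each array. Cst3 overlaps between the vectors, while Cst6 reads 82.6 and 88.5 with MiG and 45.6 and 38.3 with IKKb.

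Among related mouse genes, Cstb (cystatin B) read 8831 and 6722 with MiG and 8494 and 8306 with IKKb. Of 7 genes tested in the list of cathepsins and legumain 0 passed, with a median difference of -0.04. Ctsb read 10176 and 5915 with MiG and 7734 and 6076 with IKKb. Tnfaip3 read 153 and 244 with MiG and 671 and 434 with IKKb, and Relb 140 and 95.5 against 624 and 338, so both IKKb arrays exceeded both MiG arrays for these readouts although neither passed the adjusted threshold in limma.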

How the data were processed

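The authors deposited a linear intensity for each probe set of single-colour Affymetrix arrays, for which the submitters' processing notes name GCOS 1.4 and MAS5. With 2 percent trimmed from each tail, the mean was checked to be 500 on every array, so differences in total RNA are removed. Of the human probe sets 41097 name 1 gene, 1801 several and 11777 none (mouse: 34958, 932 and 9211), from GEO's platform annotation with symbols updated through RefSeq's GRCh38.p14 gene table. The array build is not given in the sources used here, so no coordinates are printed, and detection calls were not used here. The members' sequences were not used here.

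Signals were taken as log2(signal + 16), so fold changes of dim probe sets are understated. Tested probe sets exceeded the 40th percentile on 5 or more human arrays, or 2 or more mouse arrays, without control probe sets. limma 3.58.1 in R 4.3.3 (lmFit, eBayes with an intensity trend, two-sided, Benjamini-Hochberg adjustment, threshold 0.05) was fitted to 14 human arrays, blocking on the line, and to 4 LLC arrays with no block; both were tested on simulated data. The H358 IKKb array was left out because it had chosen the members, except in the alternative with all 15 arrays. A fold is written "at least" where the lower signal was replaced by its array's 40th percentile. In lists a gene stands for its brightest probe set that names 1 gene.

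Members and lists were chosen with earlier results of these data known. Named genes are the members, the 4 genes most correlated with each member with and without line means, the 8 largest H358 differences, 3 pathway genes and, from each list, genes past the threshold and up to 4 with the largest H358 difference; others are named for comparison, chosen after their values were seen. Alternatives covered median centring, quantile normalisation, pseudocounts of 1 and 64, a filter at the 60th percentile or none, 1 probe set per gene, no trend, no block, all 15 arrays and leaving out each replicate. Python 3.11.15 and matplotlib 3.10.9 made the figures.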

Additional observations from a re-analysis of the deposited data

Results flagged for a closer look

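In groups of 5 lines, 1 sample stood far from the others in 8 of the 48 groups checked. H358 was that sample in 6 of them, and these were fixed by the choice of members. By chance the rule flags about 1 in 20 independent groups, but these groups share arrays and probe sets. Whether the remaining 2 arose by chance was not tested. For IKKb minus MiG, CST1 stood at 9.54 (next A549, 1.88), CST2 at 7.16 (next A549, 1.37) and CST4 at 6.47 (next H23, 1.26), as log2 differences. For IKKb minus IkB_SR, CST1 stood at 9.77 (next PC9, 2.57), CST2 at 7.15 (next HCC827, 1.12) and CST4 at 6.48 (next PC9, 1.60). These 6 values share 1 array and are a description, not separate observations.

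The other 2 were levels with IkB_SR. CST1 in A549 stood at 8.23 on the log2(signal + 16) scale, above PC9 at 5.35, and the CST3 probe set 237623_at in H23 stood at 5.34, below A549 at 8.05.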

How the results depend on the processing

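Of 250 single values under alternatives, 225 kept direction and side of the threshold. For IKKb against IkB_SR the count of member probe sets past the threshold was 1, and 0 with no filter on dim probe sets, with eBayes without a trend, with no replicate block and with all 15 human arrays; leaving out 1 line gave 0 to 1. The CST1 adjusted p was 0.0622, 0.148, 0.99998 and 0.215 in those 4 settings, with log2 differences of 1.04 to 3.23 and adjusted p of 0.0175 to 0.99998 over all 15 alternatives in limma. Without the filter more probe sets are adjusted for; the other causes were not tested. Over all probe sets that comparison had 124 calls, but 72 with no filter, 0 without a trend, 0 with no replicate block, 28 without HCC827 and 41 without PC9. IkB_SR against MiG had 3 calls, and 0 to 11 when a line was left out.

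In LLC the replicate block gave 547 calls in place of 0, and Cst3 and Cst6 did not pass with it (limma adjusted p 0.746 and 0.303). Deviations of same-numbered arrays correlated at 0.60, but the labels do not say that numbers pair them. Leaving out 1 LLC array gave 8 to 130 calls.

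Directions turned only for differences that never passed. For CST3, IKKb against MiG was -0.0035 with quantile normalisation, -0.12 with no replicate block and -0.0561 to 0.0616 with a line left out, and IKKb against IkB_SR was 0.012 with median centring and 0.0028 with all 15 arrays. For CST6, IKKb against MiG was -0.318 to 0.0087 with a line left out. For CST6, IKKb against IkB_SR was 0.0084 with a pseudocount of 1, 0.011 with quantile normalisation, 0.048 with median centring, 0.039 with all 15 arrays and -0.27 to 0.18 with a line left out. For IkB_SR against MiG, CST4 was 0.014 with a pseudocount of 1 and -0.40 to 0.30 with a line left out, and CST2 -0.30 to 0.099. Cst3 in LLC was -0.60 to 0.012 with an array left out.

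Limits are the single H358 IKKb array, dim CST1 and CST2 signals on 7 and 5 of 15 arrays and cross-hybridisation, which was not tested.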
